A study of Caenorhabditis elegans with 6 samples.

Results

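The genes described here encode the enzymes that build fatty acids and put double bonds into them in the nematode Caenorhabditis elegans. They are the acetyl-CoA carboxylase gene pod-2, the fatty acid synthase gene fasn-1 and the fatty acid desaturase genes fat-1 to fat-7. They were chosen by name: every probe set with 1 platform gene symbol among these 9 names was taken, and the brightest over the 6 arrays stood for the gene. All 9 genes were measured, by 10 probe sets, out of 17118 genes on the array, and fasn-1 alone had a further probe set. RNA came from whole first-stage (L1) larvae that carried lin-35(n745) or were wild type, with 3 arrays of each genotype. All larvae hatched from bleach-prepared eggs and were then kept unfed at 20 °C for 30 h in S-basal buffer without cholesterol. LIN-35 is the worm's retinoblastoma protein, a transcriptional repressor, and n745 is a nonsense point mutation, here the sole mutant allele. No fed larvae were included, so each difference compares unfed mutants with unfed wild-type larvae. Readings are on a log2 scale, as the robust multi-array average (RMA) gives them, and each log2 unit is a 2-fold step.

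In fatty acid synthesis, acetyl-CoA carboxylase makes malonyl-CoA and fatty acid synthase joins malonyl-CoA units into palmitic acid. Palmitic acid is desaturated directly or is lengthened to stearic acid first, and the stearoyl-CoA desaturases then make oleic acid. C. elegans, unlike mammals, also has desaturases that turn oleic acid into linoleic acid and omega-6 into omega-3 fatty acids. From these it makes long polyunsaturated fatty acids. Much of this synthesis takes place in the intestine, and fasn-1 and pod-2 also act in the epidermis, where lipids seal the cuticle. Starved L1 larvae take up no dietary fat and live on stores from the egg.

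RNA of the fatty acid synthase gene fasn-1 was higher in lin-35(n745) larvae. That of the omega-3 desaturase gene fat-1 and of fat-2, the gene for the desaturase that makes linoleic acid, was lower. Of the 9 genes, 1 rose, 2 fell and 6 did not pass the threshold, an adjusted p under 0.05 in limma. Among all 17118 genes, 11.8% passed it, 5.71% higher and 6.12% lower, and the median difference of all genes was −0.04. The median of the 9 genes was −0.16 on the same scale. Of the 9 genes, 7 were brighter than the median of all probe sets. With probe sets below the 50th percentile left out, 2419 of 11274 passed, and of those 7 genes 1 rose and 1 fell. The mutant and wild-type arrays did not overlap for 5 of the 9 genes (fasn-1, fat-1, fat-2, fat-3 and fat-5), against 31.3% of all genes. Under 19 alternative settings, fasn-1 passed the threshold in 18, fat-1 in 15 and fat-2 in 6. In RNA from whole animals, fewer cells of a type and less RNA per cell cannot be told apart.

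**Figure D1:**
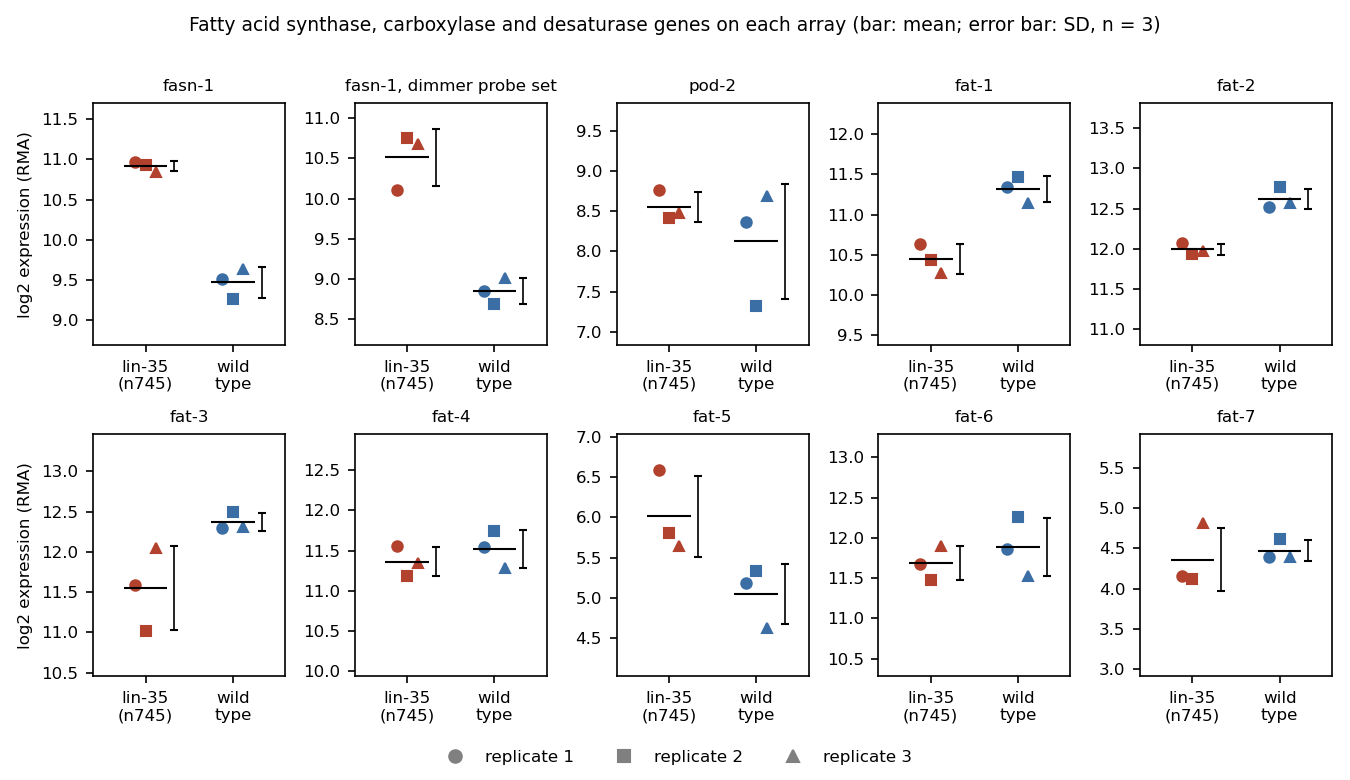
Log2 expression (RMA, vertical axis, each panel spanning 3 units) of the 9 genes and the dimmer fasn-1 probe set on each lin-35(n745) and wild-type array, with replicates by marker shape, the mean as a bar and the SD beside it (n = 3). The fasn-1 readings stand clear of each other by genotype on both probe sets, and those of pod-2, fat-4, fat-6 and fat-7 overlap.

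Several facts of the arrays bear on these values. The 3′ to 5′ log2 difference of the actin control transcript, a measure of RNA quality, was 2.31, 0.41 and 1.23 on lin-35(n745) replicates 1 to 3, against 0.53 to 0.78 on the wild-type arrays. Wild-type replicate 2 lay at an end of its genotype for every one of the 9 genes, the highest for all 7 desaturases and the lowest for fasn-1 and pod-2, as it did for 79.9% of all genes (highest for 52.6%, lowest for 27.2%). It was the wild-type array farthest from the mutant mean for 8 of the 9 genes, fat-5 being the exception, and for 49.3% of all genes. The lin-35 transcript itself differed by 0.06 (brighter probe set, SE 0.19, limma adjusted p = 0.894), and a point mutation leaves the probed sequence in place, so this checks no label.

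The synthase gene fasn-1 read 10.97, 10.93 and 10.84 in the 3 lin-35(n745) samples, against 9.52, 9.26 and 9.64 in the 3 wild-type samples. Every mutant array thus stood more than 1 log2 unit above every wild-type array. The means were 10.92 ± 0.06 in lin-35(n745) and 9.47 ± 0.19 in the wild type (SD, n = 3 each), a 2.72-fold difference (log2 1.44, SE 0.16, 95% interval 1.08 to 1.81, limma adjusted p = 0.00237). The dimmer fasn-1 probe set read 10.10, 10.75 and 10.68 in lin-35(n745), against 8.85, 8.69 and 9.01 in the wild type. Its difference was 1.66 (SE 0.21, limma adjusted p = 0.00455), so both probe sets of the gene passed the threshold in the same direction. The rise of fasn-1 passed without any 1 of the 6 arrays, with differences from 1.34 to 1.53 and adjusted p from 0.00798 to 0.016. With the actin 3′ to 5′ difference as a covariate it was 1.43 (adjusted p = 0.0102), and with lin-35(n745) replicates 1 and 3 both left out it was 1.46 (adjusted p = 0.0512), a fit that has 1 mutant array and assumes it varies like the wild type.

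Leaving aside the dimmest 25% of probe sets, the 3 genes whose readings followed fasn-1 most closely over the 6 arrays were cyk-4, nhr-102 and nfx-1, each with a Pearson correlation of 0.999. Their differences were 2.71 for the cytokinesis gene cyk-4, 1.43 for the nuclear hormone receptor gene nhr-102 and 2.42 for nfx-1, all on the log2 scale and all called. Likeness over 6 arrays is mostly set by the gap between genotypes, and 471 of the 12930 genes compared had a correlation above 0.95 with fasn-1.

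The acetyl-CoA carboxylase gene pod-2, which acts one step before the synthase, did not pass the threshold. Its probe set read 8.76, 8.42 and 8.47 in lin-35(n745), against 8.36, 7.32 and 8.69 in the wild type, so the genotypes overlapped and wild-type replicate 2 stood apart below the rest. The difference was 0.43 (SE 0.34, 95% interval −0.38 to 1.23, limma adjusted p = 0.518). Without wild-type replicate 2 it was 0.02 (adjusted p = 0.973), and without wild-type replicate 3 it was 0.71 (adjusted p = 0.252). The pod-2 probe set is of a kind that can match several transcripts. Within arrays, the log2 ratio of fasn-1 over pod-2 was higher in the mutant by 1.02, and no mutant array overlapped a wild-type array. The exact two-sided permutation p was 0.1, the smallest that 3 arrays against 3 can give, and also 0.1 after Benjamini-Hochberg adjustment over the 5 such ratios computed. Since fasn-1 alone did not overlap between genotypes, the ratio is not a separate result.

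**Figure D2:**
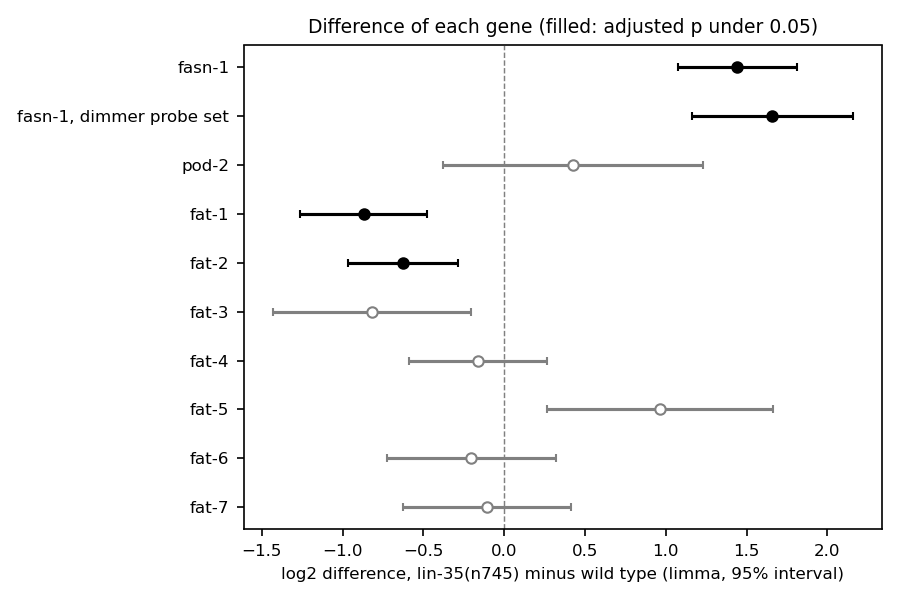
Log2 difference of each gene, lin-35(n745) minus wild type (horizontal axis), with limma's 95% interval, filled where the adjusted p is under 0.05. The fasn-1 intervals lie above 0 on both probe sets, those of fat-1 and fat-2 lie below 0, and those of fat-3 and fat-5 leave out 0 although their adjusted p was 0.0925 and 0.0836.

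The desaturases that introduce the double bond of monounsaturated fatty acids are fat-5, which acts on palmitic acid, and the stearoyl-CoA desaturases fat-6 and fat-7, which make oleic acid. None of these 3 genes passed the threshold. Readings of fat-5 were 6.59, 5.81 and 5.65 in lin-35(n745), against 5.19, 5.33 and 4.63 in the wild type. All mutant arrays were thus the higher ones, and the highest was mutant replicate 1, the array with the largest actin 3′ to 5′ difference. The difference of fat-5 was 0.96 (SE 0.30, 95% interval 0.26 to 1.66, limma adjusted p = 0.0836). It was 0.68 without mutant replicate 1 (adjusted p = 0.147) and 0.71 with the actin covariate (adjusted p = 0.238). The mean of fat-5 over all arrays lies below the median of all probe sets, 6.00.

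The gene fat-6 read 11.68, 11.47 and 11.89 in lin-35(n745), against 11.87, 12.26 and 11.53 in the wild type. These ranges overlapped, and the difference was −0.20 (SE 0.22, 95% interval −0.73 to 0.32, limma adjusted p = 0.661). Without 1 array it ran from −0.38 to −0.02, the last without wild-type replicate 2. Its sign was not settled, being 0.0029 with quantile normalization applied again and 0.0026 with cyclic loess. The interval leaves out an increase or a decrease of 2-fold in fat-6. The fat-6 probe set can match several transcripts, and fat-7 is its close paralogue, so RNA of fat-7 could add to the fat-6 reading.

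The probe set of fat-7 was dim on all arrays, at 4.15, 4.12 and 4.81 in lin-35(n745), against 4.39, 4.62 and 4.39 in the wild type. The 25th percentile of all probe set means is 4.29, so these readings can be background, and the difference of −0.11 (SE 0.22, limma adjusted p = 0.841) says little about fat-7 RNA. Its sign turned without mutant replicate 2, at 0.02. The log2 ratio of fat-5 over fat-6 was higher in the mutant by 1.17, with no overlap between genotypes (exact two-sided permutation p = 0.1, the smallest possible, and 0.1 adjusted over the 5 ratios). Readings of fat-5 alone also did not overlap, so the ratio is not a separate result.

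The polyunsaturated branch opens with fat-2, whose product turns oleic acid into linoleic acid. Its probe set read 12.07, 11.94 and 11.97 in lin-35(n745), against 12.52, 12.77 and 12.57 in the wild type, so every mutant array was below every wild-type array. The means were 11.99 ± 0.07 in lin-35(n745) and 12.62 ± 0.13 in the wild type (SD, n = 3 each), and fat-2 was 1.54-fold lower in the mutant (log2 −0.63, SE 0.14, 95% interval −0.96 to −0.29, limma adjusted p = 0.0349). The call was lost without any 1 array: leaving out mutant replicate 1, 2 or 3 gave an adjusted p of 0.054, 0.0792 or 0.0745, and leaving out wild-type replicate 1, 2 or 3 gave 0.106, 0.102 or 0.086. The differences in these fits ran from −0.67 to −0.55. Under cyclic loess the difference was −0.41 (adjusted p = 0.0852), the value nearest to 0 among the alternatives.

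The omega-3 desaturase gene fat-1 belongs to the same branch, its product converting omega-6 into omega-3 fatty acids. Its probe set read 10.64, 10.43 and 10.27 in lin-35(n745), against 11.34, 11.46 and 11.14 in the wild type, again with no overlap. The means were 10.45 ± 0.18 in lin-35(n745) and 11.32 ± 0.16 in the wild type (SD, n = 3 each), and fat-1 was 1.83-fold lower in the mutant (log2 −0.87, SE 0.17, 95% interval −1.26 to −0.48, limma adjusted p = 0.0194). Leaving out mutant replicate 3 (adjusted p = 0.0532), wild-type replicate 1 (0.0846) or wild-type replicate 2 (0.0653) ended the call of fat-1, while its difference stayed between −0.96 and −0.78 without any 1 array. With the actin covariate it was −0.94 (adjusted p = 0.0375).

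The genes fat-1 and fat-2 are neighbours on the same chromosome in the WBcel235 gene table, with no other protein-coding gene between them. After each genotype's mean was taken away, their readings had a Pearson correlation of 0.65 over the 6 arrays, which share their processing. That of the other neighbours, fat-3 and fat-4, was 0.42, and other pairs of desaturase genes had higher ones, such as 0.96 for fat-1 and fat-5 and 0.81 for fat-1 and fat-4. Within arrays the log2 ratio of fat-1 over fat-2 was lower in the mutant by −0.24, with mutant values ending just below the lowest wild-type value (exact two-sided permutation p = 0.1, the smallest possible, and 0.1 adjusted over the 5 ratios).

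The remaining pair, fat-3 and fat-4, encode the front-end desaturases that place further double bonds near the carboxyl end, with fat-3 acting on linoleic acid and its omega-3 counterpart and fat-4 acting last on the way to arachidonic and eicosapentaenoic acid. They too are neighbours in the gene table, with no other protein-coding gene between them. Readings of fat-3 were 11.59, 11.01 and 12.04 in lin-35(n745), against 12.29, 12.50 and 12.31 in the wild type. All mutant arrays were lower, but they scattered more, with an SD of 0.52 against 0.11 among the wild-type arrays. The difference was −0.82 (SE 0.26, 95% interval −1.43 to −0.20) and did not pass the threshold (limma adjusted p = 0.0925). It was −1.06 without mutant replicate 3 (adjusted p = 0.0472) and −0.55 without mutant replicate 2 (adjusted p = 0.15). With all 6 arrays and array weights it was −0.89 and passed (adjusted p = 0.0365), and without mutant replicates 1 and 3 it was −1.36 (adjusted p = 0.044). The call of fat-3 thus changed with the mutant arrays that entered and with how arrays were weighted.

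The gene fat-4 read 11.56, 11.19 and 11.35 in lin-35(n745), against 11.55, 11.75 and 11.28 in the wild type, with overlap. Its difference was −0.16 (SE 0.18, 95% interval −0.59 to 0.27, limma adjusted p = 0.675), and its sign turned when quantile normalization was applied again (0.06) or cyclic loess was used (0.04). Without 1 array it ran from −0.28 to −0.05, the last without wild-type replicate 2. The log2 ratio of fat-3 over fat-4 was lower in the mutant by −0.66 with no overlap (exact two-sided permutation p = 0.1, the smallest possible, and 0.1 adjusted over the 5 ratios). Since fat-3 alone did not overlap either, the ratio is not a separate result.

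Across the desaturases, 6 of 7 differences were below 0, against 54.7% of all genes. Of the 7 genes 2 were called lower, against 6.12% of all genes. Among the 7, 5 were brighter than the median of all probe sets, as were 8645 of all 17118 genes. Without probe sets below the 50th percentile, fat-1 was the only desaturase gene called, beside 2419 of 11274 probe sets. The difference of fat-5 alone was above 0. The signs of fat-4, fat-6 and fat-7 turned in at least 1 alternative. The log2 ratio of fasn-1 over fat-2 within arrays was higher in the mutant by 2.07, with SDs of 0.07 among mutant and 0.31 among wild-type arrays. It had no overlap (exact two-sided permutation p = 0.1, the smallest possible, and 0.1 adjusted over the 5 ratios). Since neither gene overlapped and they changed in opposite directions, this ratio's direction, lack of overlap and p follow from their readings. The fasn-1 reading was below the fat-2 reading on every array. The gap between them was smaller on every mutant array than on any wild-type array.

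**Figure D3:**
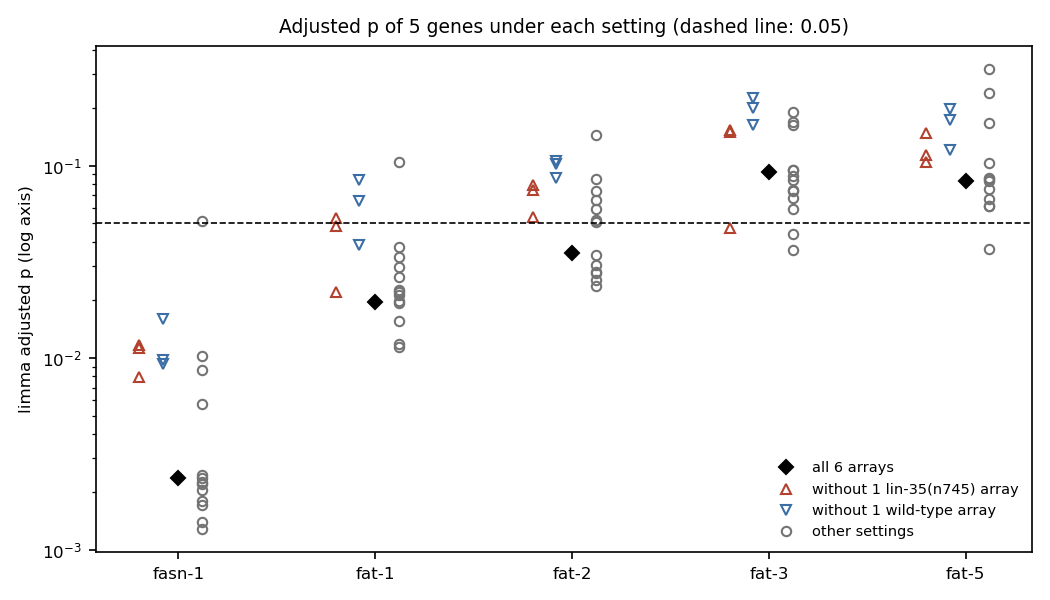
Adjusted p from limma (vertical log axis) for the 5 genes whose genotypes did not overlap, with all 6 arrays, without each array in turn and under the other settings; the dashed line marks 0.05. All fasn-1 points but 1 (0.0512) lie under the line, fat-1 and fat-2 lie on both sides of it, and most points of fat-3 and fat-5 lie above it.

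The enzymes that lengthen fatty acids work in step with the desaturases. Of 12 genes listed for elongation 11 were measured, and 3 fell, none rose and 8 did not pass, a share of 27.3% called against 11.8% of all genes. Of the 11 genes, 7 were brighter than the median of all probe sets. Without probe sets below the 50th percentile, 2 of 7 elongation genes fell, beside 2419 of 11274 probe sets called in either direction. The list median was −0.36. The predicted hydroxyacyl-CoA dehydratase gene hpo-8 fell by 0.77 on the log2 scale (SE 0.15, limma adjusted p = 0.0192), the ketoacyl-CoA reductase gene let-767 by 0.74 (SE 0.15, adjusted p = 0.023) and the elongase gene elo-2, whose product lengthens palmitic acid, by 0.62 (SE 0.16, adjusted p = 0.0465). The elongase gene elo-1, which acts on polyunsaturated fatty acids, differed by −0.07 (adjusted p = 0.839), and elo-5, an elongase of branched-chain fatty acids, by −0.76 with wide scatter (SE 0.41, adjusted p = 0.302). The elo-5 difference was −0.35 without wild-type replicate 2, −0.47 without mutant replicate 1 and −0.26 without mutant replicates 1 and 3. The count of 3 became 1, 1 and 2 without mutant replicates 1, 2 and 3, and 0, 0 and 1 without wild-type replicates 1, 2 and 3.

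Genes listed for precursor and cofactor supply, not all of which feed the synthase, moved both ways. Of 13 such genes 3 rose, 1 fell and 9 did not pass (list median 0.17). The share called was 30.8%, against 11.8% of all genes (5.71% higher, 6.12% lower). Of the 13 genes, 12 were brighter than the median of all probe sets. Without probe sets below the 50th percentile, 3 of 12 rose and 1 fell, beside 2419 of 11274 probe sets called. The acyl-CoA synthetase genes acs-5 and acs-4 rose by 1.59 (SE 0.31, limma adjusted p = 0.0195) and 1.43 (SE 0.20, adjusted p = 0.00629). The ATP citrate lyase gene acly-2, whose product makes cytosolic acetyl-CoA for the carboxylase, read 8.53, 8.64 and 8.68 in lin-35(n745), against 7.76, 7.65 and 7.87 in the wild type. It rose by 0.86 (SE 0.14, adjusted p = 0.0112). The predicted cytochrome b5 reductase gene hpo-19, of the electron chain that serves desaturases, read 8.34, 8.60 and 8.54 in lin-35(n745), against 9.48, 9.21 and 9.45 in the wild type, and fell by 0.89 (SE 0.16, adjusted p = 0.014). Without wild-type replicate 1, 1 of the 3 rises was called and the fall was not (adjusted p = 0.0739 for hpo-19), nor was it without wild-type replicate 3 (0.0514). Without mutant replicate 3, acs-5 was not called (0.0774). The acs-4 rise passed without any 1 array.

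No gene of the 12 transcription factors and membrane regulators listed for this pathway passed the threshold (limma; list median 0.08). The sterol regulatory element binding protein gene sbp-1, whose product activates fatty acid synthesis genes, read 9.97, 9.44 and 9.52 in lin-35(n745), against 8.80, 8.94 and 9.24 in the wild type. These ranges did not overlap, and the difference was 0.65 (SE 0.20, adjusted p = 0.0851), which passed under cyclic loess alone among the alternatives (0.79, adjusted p = 0.0389). The nuclear hormone receptor gene nhr-80, known to be needed for stearoyl-CoA desaturase expression, differed by −0.56 (SE 0.23, adjusted p = 0.174), by −0.36 without mutant replicate 2 and by −0.97 without mutant replicates 1 and 3. The receptor gene nhr-49 (0.09, adjusted p = 0.841) and the mediator subunit gene mdt-15 (0.08, adjusted p = 0.909) had no settled sign.

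Downstream, where fatty acids are placed into storage fat and membranes, 23 listed genes were measured. Of these 2 rose, 6 fell and 15 did not pass. The share called was 34.8%, against 11.8% of all genes (5.71% higher, 6.12% lower), and the list median was −0.09, against −0.04. Of the 23 genes, 21 were brighter than the median of all probe sets, as were 8645 of all 17118 genes. Without probe sets below the 50th percentile, 2 of 21 rose and 6 fell, beside 2419 of 11274 probe sets called. The rises were the diacylglycerol acyltransferase gene dgat-2, of triglyceride synthesis (1.31, SE 0.29, limma adjusted p = 0.0292), and pcyt-1, of phosphatidylcholine synthesis (1.08, SE 0.27, adjusted p = 0.0479). When the probe sets of a gene were averaged, dgat-2 stood at 0.70 (limma adjusted p = 0.0473). The 1.31 came from its brightest probe set, so the rest of its probe signal differed less and the size of the rise is not settled. The falls of smallest p were the phosphoethanolamine methyltransferase gene pmt-2 (−0.80, adjusted p = 0.0177), the acyltransferase family genes acl-3 (−1.01, adjusted p = 0.028) and acl-13 (−0.80, adjusted p = 0.0297), and the lysophospholipid acyltransferase gene mboa-6 (−0.71, adjusted p = 0.0293). The 2 rises became 1, 0 and 1 without mutant replicates 1, 2 and 3, and 0, 1 and 0 without wild-type replicates 1, 2 and 3. The 6 falls became 4, 4 and 2 without those mutant replicates, and 0, 0 and 2 without those wild-type replicates.

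**Figure D4:**
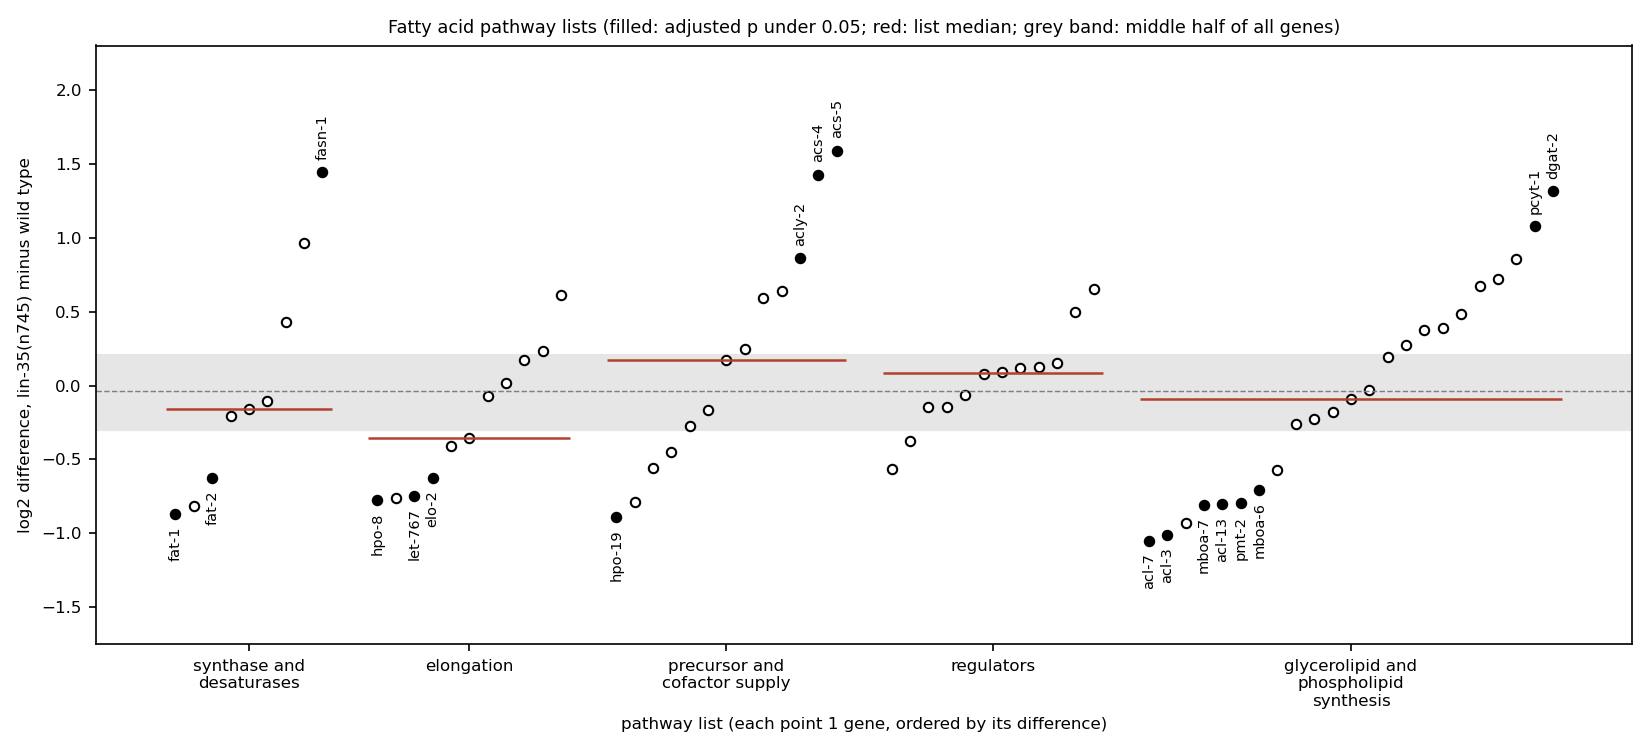
Log2 difference, lin-35(n745) minus wild type (vertical axis), of each measured gene in the synthase and desaturase group and in 4 pathway lists, with called genes filled and named, list medians in red and the interquartile range of all genes, −0.30 to 0.21, as a grey band. The highest points are fasn-1, acs-4, acs-5 and dgat-2, and called elongation genes all lie below 0.

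Markers of the intestine, the epidermis, body wall muscle, adult yolk and oocytes, and embryos were read beside these genes. The share called was 18.2% of intestine, 10% of epidermis, 0% of body wall muscle, 9.09% of yolk and oocyte and 11.1% of embryo markers. Among all genes it was 11.8%. Of 11 measured intestine markers, 2 rose and the other 9 did not pass, and the list median was 0.21. The 2 were the intestinal actin gene act-5 (1.65, limma adjusted p = 0.00187) and the endoderm transcription factor gene elt-2 (0.98, adjusted p = 0.0215), named after their values were seen, and the elt-2 call was lost without mutant replicates 2 or 3 (0.055 and 0.0688) or wild-type replicates 1 or 3 (0.0733 and 0.06). The summed linear level of the intestine list was 24511 to 27474 in lin-35(n745), against 29831 to 31975 in the wild type. Most of that gap lay in the aspartyl protease gene asp-1, and without asp-1 the sums were 13427 to 17226 in lin-35(n745) and 14667 to 16738 in the wild type, which overlapped. The sum over all genes was also lower on every mutant array, at 6143920 to 6731660 in lin-35(n745), against 6885850 to 7016490 in the wild type. The asp-1 difference itself was −0.49 (limma adjusted p = 0.0629), and it passed with the floor, with trend and robust settings or with array weights. Of 10 epidermis markers 1, the transcription factor gene elt-1, was called (0.82, adjusted p = 0.04; list median 0.12), with summed levels of 2940 to 3304 in lin-35(n745) and 2093 to 3711 in the wild type. Of 8 body wall muscle markers none was called (limma), with sums of 16092 to 18345 in lin-35(n745) and 8867 to 21460 in the wild type. The lowest of these was wild-type replicate 2, which had the lowest wild-type sum in all 5 marker lists, and the other wild-type muscle sums were 17453 and 21460. The muscle gene unc-22 differed by 1.46 (adjusted p = 0.0751) and passed in 5 of the 19 alternatives.

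Of 11 markers of adult yolk and oocytes 1, egg-2, was called (0.76, limma adjusted p = 0.0385), with sums of 541 to 597 in lin-35(n745) and 518 to 605 in the wild type. The list median was −0.13, and 7 of the 11 differences were below 0. The oocyte gene puf-5 did not overlap between genotypes and differed by −0.67 (limma adjusted p = 0.0604). It passed, as a fall, in 3 of the 19 alternatives. The yolk protein gene vit-2 averaged 3.52 in lin-35(n745) and 3.08 in the wild type, at the dim end of the array. Of 9 embryo markers 1, med-1, was called (−0.79, limma adjusted p = 0.0228), with sums of 915 to 1370 in lin-35(n745) and 636 to 1404 in the wild type. The med-1 readings were 4.68, 4.67 and 4.68 in lin-35(n745), nearly identical, against 5.35, 5.33 and 5.71 in the wild type. Their mean, 5.07, lies below the median of all probe sets, 6.00. The genes elt-1, egg-2, puf-5, med-1, asp-1 and unc-22 were also named after their values were seen. The call of elt-1 passed only without mutant replicate 1 and that of egg-2 only without mutant replicate 2 when 1 array was left out, with adjusted p up to 0.119 and 0.147, and that of med-1 passed without mutant replicate 1 or wild-type replicate 2, with adjusted p up to 0.0733. The part of tissue makeup in the differences of fasn-1, fat-1 and fat-2 was not tested.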

How the data were processed

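Per the submitters' processing notes, the authors made the deposited log2 expression values with RMA, with no version given. RMA includes background correction, quantile normalization and a summary of each probe set. It hides a change of all transcripts in 1 direction and understates the differences of dim probe sets. No detection calls were used.

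Of 22625 probe sets, 77 controls were left out and 22548 were tested without a filter. Symbols came from the platform annotation, compared by Entrez identifier with a table of WBcel235 genes, used for names and neighbours alone. Differences, mutant minus wild type, were tested two-sided with limma 3.58.1 (lmFit, eBayes; R 4.3.3). Benjamini-Hochberg adjustment covered all 22548 probe sets. Called means an adjusted p under 0.05. The fit was tested on simulated data. The labels call the 3 arrays per genotype biological replicates, and their number limits the precision.

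The 9 genes, the pathway and marker lists, their tests and the alternatives were chosen with earlier results of these data known. Lists are described by counts and medians, with no set test. Named genes were the 9, up to 4 called genes per pathway list and direction by smallest p, elo-1, elo-2, elo-5, sbp-1, mdt-15, nhr-49, nhr-80, lin-35 and the 3 genes most like the member of largest difference. No sequences are given.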

Additional observations from a re-analysis of the deposited data

How the results depend on the processing

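Under 19 alternatives, 6 of which each left out 1 array, the rise of fasn-1 kept its sign in all and its call in 18, fat-1 its sign in all and its call in 15, and fat-2 its sign in all and its call in 6. The fat-2 difference was −0.41 under cyclic loess and −0.47 after repeated quantile normalization, and in the other settings that ended its call it was −0.68 to −0.55, with adjusted p up to 0.145. Without lin-35(n745) replicates 1 and 3, 768 probe sets were called against 2542, 0 of the 9 genes rose and 1, fat-3, fell, and the counts were 0 for elongation falls, 0 and 0 for supply rises and falls, and 0 and 1 for glycerolipid rises and falls. That fit has 1 mutant array, so fewer samples entered. Of the 9 genes 1 fell after repeated quantile normalization, cyclic loess, either filter on dim probe sets, or the actin covariate. With array weights 3 fell, fat-3 joining fat-1 and fat-2. With the replicate block 2 rose, fat-5 joining fasn-1 (adjusted p = 0.037), and 1 fell. Deviations of same-numbered arrays correlated at 0.05, 0.08 and 0.07, so the numbers were not taken to pair arrays.

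Elongation falls numbered 1 under cyclic loess and 1 with the actin covariate. Regulator rises numbered 1 under cyclic loess (sbp-1). Glycerolipid rises numbered 5 after repeated quantile normalization, 4 under cyclic loess, 0 with the floor, 1 without probe sets that can match several transcripts, 1 with the actin covariate and 1 when a gene's probe sets were averaged. Glycerolipid falls numbered 2 with the floor, 2 without such probe sets and 2 with the actin covariate. Supply falls numbered 2 when probe sets were averaged. Called probe sets numbered 1552 with the floor and 1643 without such probe sets, where fewer were tested. The filter at the 50th percentile left fat-5 and fat-7 without a value, and the restriction to probe sets of 1 transcript did so for pod-2 and fat-6. Otherwise the cause was not tested. Leaving out 1 array gave 1002 to 2380 called probe sets, 0 to 1 falls among the 9 genes, 0 to 2 elongation falls, 1 to 3 supply rises, 0 to 1 supply falls, 0 to 1 glycerolipid rises and 0 to 4 glycerolipid falls. Median centring put the median difference of all probe sets at −0.11 (−0.03 without it) and 37.6% of calls on the higher side (50.4% without it), cyclic loess put 59.5% there, and the signs of fasn-1, fat-1 and fat-2 held under both.

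Signs turned only among differences that were not called in any alternative. After repeated quantile normalization fat-4 was 0.057, fat-6 0.0029 and elo-1 0.084, and under cyclic loess they were 0.036, 0.0026 and 0.15. For mdt-15 the difference was −0.00998 with median centring, −0.068 with the actin covariate and −0.29 without mutant replicates 1 and 3, and −0.093 to 0.30 without 1 array. For nhr-49 it was −0.0031 with array weights, −0.078 with the actin covariate and −0.11 without mutant replicates 1 and 3, and −0.061 to 0.19 without 1 array. For fat-7 it was −0.33 to 0.016 without 1 array.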
